A study of Mus musculus with 4 samples.

Results

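The signals of 9 genes of platelets and of the megakaryocytes that shed them were followed over 4 arrays of mouse cochlear RNA. The genes were *Ppbp*, *Pf4*, *Itga2b*, *Itgb3*, *Gp1ba*, *Gp1bb*, *Gp9*, *Gp5* and *Gp6*. They were chosen by name, as the array files give it, after *Ppbp* had shown the largest fall, from untreated wild-type (WT) to untreated OHC-TRECK, of any gene measured above background on both arrays, and the question was whether the other 8 share its pattern. Of 29977 gene names on the array, 21937 gave a signal well above background somewhere among the 4 arrays, and 8 of the 9 genes were among these. *Gp5* was not. The array carries 12 features, each a 60-base oligo spotted once, for the 9 genes.

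The 4 groups of B6J mice were 5 weeks old: untreated WT, WT given diphtheria toxin (DT), untreated OHC-TRECK and OHC-TRECK given DT. DT was given at 50 μg/kg, 7 days before the cochleae were taken. OHC-TRECK mice, also named *Prestin*-*hDTR*, come from 1 transgenic line in which the promoter of *Slc26a5*, the gene of the outer hair cell motor protein prestin, drives a modified human DT receptor, and DT then kills the cells that make it. RNA of males and females was pooled, the labels giving 8 cochleae with 4 females and 4 males, and each group has 1 array, so no value below has a replicate, a test or an error from mouse to mouse.

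Megakaryocytes are large cells of the bone marrow that release platelets into the blood, and platelets carry RNA and proteins made in the parent cell. Platelets stick to a cut vessel through the glycoprotein Ib-IX-V complex, which binds von Willebrand factor, and through glycoprotein VI, which binds collagen. They are then linked to each other by the integrin αIIbβ3, which binds fibrinogen, and empty α-granules that hold chemokines such as platelet factor 4. In whole-cochlea RNA, fewer cells of a type and less RNA per cell cannot be told apart.

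The sequence before the start of 3 of these genes is shown, since it is where the factors that switch on megakaryocyte genes are known to act: *Ppbp*, with the largest difference, its neighbour *Pf4*, with a small one, and *Gp1ba*, with the most motif matches among the members with a 2-fold difference. They are 150 bases each from RefSeq on GRCm38.p6, all on the plus strand and ending at the base before the transcript start that the promoter table uses, with the matches described next in capitals.
Ppbp, chr5:90768368-90768517: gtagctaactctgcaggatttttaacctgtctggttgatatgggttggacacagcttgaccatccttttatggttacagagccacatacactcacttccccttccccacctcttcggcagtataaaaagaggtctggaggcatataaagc
Pf4, chr5:90772285-90772434: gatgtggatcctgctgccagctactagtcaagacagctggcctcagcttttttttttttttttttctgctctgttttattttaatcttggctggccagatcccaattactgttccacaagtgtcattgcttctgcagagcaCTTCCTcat
Gp1ba, chr11:70638972-70639121: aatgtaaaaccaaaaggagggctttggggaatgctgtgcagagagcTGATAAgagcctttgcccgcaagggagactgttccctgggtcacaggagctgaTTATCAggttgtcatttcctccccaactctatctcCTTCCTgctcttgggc

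Of the 9 genes, 8 had a promoter in the RefSeq table, and *Itgb3* was not among them. The 250 bases before the start were searched on both strands for AGATAA and TGATAA, which GATA factors bind, AGGAAG, an ETS motif, TGAGTCA, a motif of NF-E2 and AP-1, and TGTGGT, a RUNX motif. No motif is contained in another. A GATA motif was found in 3 of the 8, *Gp1ba*, *Gp5* and *Gp6*, against 16.6% of 32851 promoters. For *Gp1ba* the RefSeq gene span begins at 70639102, inside the window, so its last bases, with the AGGAAG match, lie within the annotated gene. The whole window of *Gp9*, with its matches, lies within its annotated span, 87776131 to 87779786. For *Gp6*, on the minus strand, the span ends at 4397851, so the bases nearest the start lie within the gene. The AGATAA match of *Gp6* lies outside it. *Gp1ba* holds TGATAA at positions -104 to -99 from the start and, on the other strand, at -51 to -46. AGGAAG was found in 5 of the 8 against 29.5%, at positions -9 to -4 in *Pf4* and -16 to -11 in both *Gp1ba* and *Gp9*, on the other strand in each. TGTGGT was in 1 of the 8, *Gp9*, against 14% of promoters, and TGAGTCA in 0 against 4.46%. The window of *Ppbp* held none of these letters.

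*Ppbp* encodes pro-platelet basic protein, a chemokine of the α-granule that draws neutrophils once cut to its active form. Its feature lies at chr5:91198970-91199029 on mm9, and its first 30 bases were ctggtcatgaccatgtttttccaatttctt in the array file. On the log2 scale, where 0 is the 75th percentile of an array's signals, *Ppbp* stood at -1.28 in untreated WT, 0.24 in DT-treated WT, -5.46 in untreated OHC-TRECK and -4.55 in DT-treated OHC-TRECK. Both WT arrays were thus far above both OHC-TRECK arrays, on which the spot was nevertheless well above background. The intensities behind these levels were 1122, 3734, 68.5 and 133, and the scanner software gave each an error between 10.01% and 17.7% of its value. *Ppbp* was 18.1-fold lower in untreated OHC-TRECK than in untreated WT. This fall is what chose the gene, and the genes just behind it were *Acsm3* with 8.53-fold and *Treml1* with 7.75-fold, of 19835 genes well above background on both arrays. The DT-treated pair shares neither array with the untreated pair. There *Ppbp* was 27.8-fold lower in OHC-TRECK than in WT, again the largest fall, of 18270 genes, and *Treml1* followed with 14.1-fold. With the normexp background correction in place of the scanner's own, the log2 ratios of *Ppbp* moved from -4.18 to -3.24 without DT and from -4.79 to -4.09 with DT. DT-treated WT had 2.87-fold more *Ppbp* signal than untreated WT, a comparison that shares the untreated WT array with the one that chose the gene, and DT-treated OHC-TRECK had 1.87-fold more than untreated OHC-TRECK.

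*Pf4* encodes platelet factor 4, the other α-granule chemokine of the set, and lies next to *Ppbp* on chromosome 5. Its feature, at chr5:91202275-91202334 on mm9, begins with ctggagagttaggtatcagctgcctaaatg and shares no run longer than 6 bases with the 60 bases of the *Ppbp* oligo. Its levels were 1.27 in untreated WT, 1.66 in DT-treated WT, 0.57 in untreated OHC-TRECK and 1.18 in DT-treated OHC-TRECK. The 4 arrays had the same order as for *Ppbp*, over a far narrower range. *Pf4* was 1.63-fold lower in untreated OHC-TRECK than in untreated WT and 1.39-fold lower in the DT-treated pair, both short of 2-fold, so these neighbouring chemokine genes differed widely in size. Of 5 further chemokine genes beside them, *Cxcl5*, *Cxcl15*, *Cxcl1*, *Cxcl2* and *Cxcl3*, only *Cxcl5* was well above background on any array. *Cxcl5*, which also draws neutrophils, was 1.54-fold lower in untreated OHC-TRECK and 1.33-fold higher in DT-treated OHC-TRECK than in the WT array of the same treatment. It did not have the order of *Ppbp*: its lowest level, -5.08, was in DT-treated WT.

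**Figure D1:**
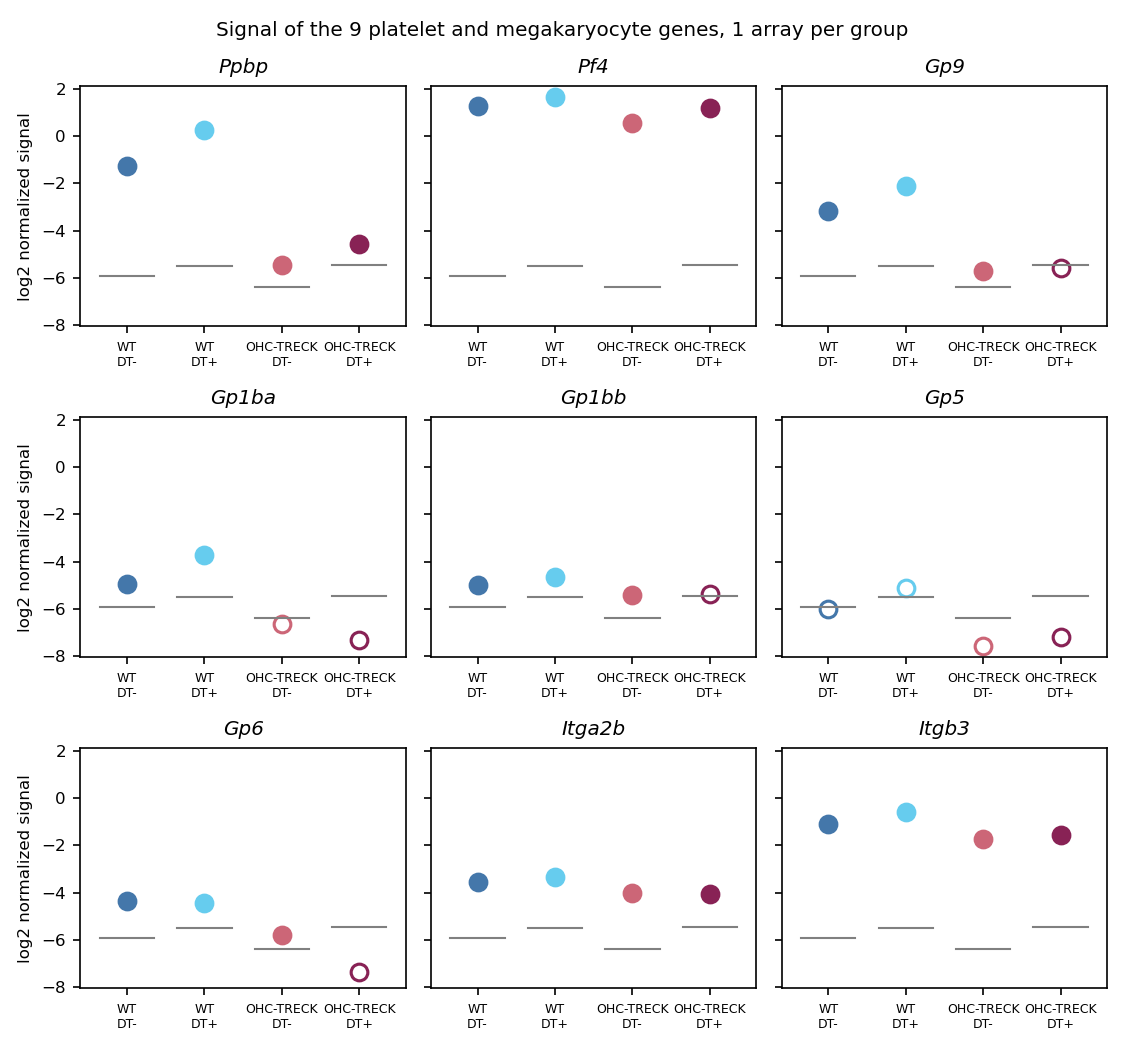
Log2 normalized signal (0 is the 75th percentile of the array) of the 9 genes on the 4 arrays, 1 point per array (DT-, untreated; DT+, DT-treated). Filled points are well above background, open points are not, and grey lines give each array's lowest well-above-background signal; *Ppbp* spans -5.46 to 0.24 while *Pf4* spans 0.57 to 1.66.

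The 4 genes of the glycoprotein Ib-IX-V complex did not behave alike. *Gp9* encodes glycoprotein IX, which is needed for the complex to reach the platelet surface. Its levels were -3.18 in untreated WT, -2.12 in DT-treated WT, -5.70 in untreated OHC-TRECK and -5.56 in DT-treated OHC-TRECK, the last not well above background. Both WT arrays were again above both OHC-TRECK arrays. *Gp9* was 5.72-fold lower in untreated OHC-TRECK than in untreated WT, place 12 among the 19835 genes, and at least 9.98-fold lower in the DT-treated pair. With the normexp background correction the log2 ratios of *Gp9* moved from -2.52 to -1.60 and from -3.32 to -2.15. A lower bound of this kind sets the dim array at the higher of the gene's own signal and the lowest signal well above background there, which was between -6.39 and -5.44 on the 4 arrays.

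*Gp1ba* encodes the chain that holds the binding site for von Willebrand factor. It stood at -4.95 in untreated WT and -3.70 in DT-treated WT and was not well above background on either OHC-TRECK array, where it read -6.61 without and -7.29 with DT. That places it at least 2.71-fold lower without DT and at least 3.35-fold lower with DT than in WT, and after normexp both log2 ratios, -0.72 and -0.97, were short of 2-fold. *Gp1bb*, the chain joined to it by disulphide bonds, had levels of -5.00, -4.65, -5.39 and -5.37 in untreated WT, DT-treated WT, untreated OHC-TRECK and DT-treated OHC-TRECK, the last not well above background. It was 1.31-fold lower in the untreated pair and at least 1.65-fold lower in the DT-treated pair. Its position overlaps *Septin5* in the RefSeq annotation, and 2 further features for it stayed near background on each array. *Gp5*, which encodes the thrombin-sensitive chain, read -5.99, -5.10, -7.57 and -7.18 on the arrays in the same order, not well above background on any, so no fold is given.

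*Gp6* encodes the collagen receptor. It stood at -4.33 in untreated WT, -4.43 in DT-treated WT and -5.79 in untreated OHC-TRECK, and read -7.33 in DT-treated OHC-TRECK, where it was not well above background. It was 2.76-fold lower in untreated OHC-TRECK than in untreated WT and at least 2.01-fold lower in the DT-treated pair. The second value lies at the threshold, and the log2 ratio became -0.98 when the arrays were scaled to their medians, -0.92 after quantile normalization, -0.45 after normexp, a background correction that shrinks the ratios of dim spots, and -2.90 without the bound. Normexp also took the untreated ratio to -0.81, short of 2-fold.

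The integrin genes differed less. *Itga2b* encodes the αIIb chain, a classical marker of the megakaryocyte lineage, and had levels of -3.55, -3.32, -4.01 and -4.05 in untreated WT, DT-treated WT, untreated OHC-TRECK and DT-treated OHC-TRECK. Its partner *Itgb3*, the β3 chain, which other cells such as osteoclasts also make, had -1.08, -0.58, -1.72 and -1.55. For both, each WT array was above each OHC-TRECK array. *Itga2b* was 1.38-fold and *Itgb3* 1.56-fold lower in untreated OHC-TRECK than in untreated WT. With DT the genotype differences were 1.66-fold and 1.95-fold. The OHC-TRECK levels of *Itga2b* without and with DT were 0.04 apart on the log2 scale. A second *Itgb3* feature stayed near background throughout.

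Over the 8 genes, then, each had its ratio below 0 in both comparisons of OHC-TRECK with WT. Of all genes with a ratio, 11313 of 21110 were below 0 in the untreated pair and 9342 of 19495 in the DT-treated pair. A member measured on the WT array alone could have no ratio above 0, so nothing is read from these signs. In each comparison 4 of 8 were 2-fold or more lower, *Ppbp*, *Gp9*, *Gp1ba* and *Gp6* both times. In the untreated pair, which chose *Ppbp*, 2.44% of 21632 genes were 2-fold or more lower and 1.02% higher, and nothing is read from the count of members there. In the DT-treated pair, whose arrays the choice did not use, 1.94% of 19496 genes were lower and 1.52% higher, and 4 of 8 members were lower. Of these 4, *Ppbp* alone was well above background on both arrays. *Gp9*, *Gp1ba* and *Gp6* entered through the WT array and are given by their bounds, so this count is a description and carries no weight against the share over all genes. The median log2 ratio of the 8 was -1.07 without and -0.99 with DT, beside -0.01 and 0.01 over all genes, and nothing is read from these either, since the first holds the value that chose *Ppbp* and both hold bounds. Over the 4 members well above background on all 4 arrays, *Ppbp* among them, the medians were -0.67 and -0.85. Of 19192 genes in both comparisons, 0.396%, or 76 genes, were 2-fold or more lower in both. Most of the calls among the members rest on weak spots. With normexp, 2 members remained 2-fold lower in each comparison, *Ppbp* and *Gp9*, and among the 4 members well above background on all 4 arrays *Ppbp* was the 1 at 2-fold.

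**Figure D2:**
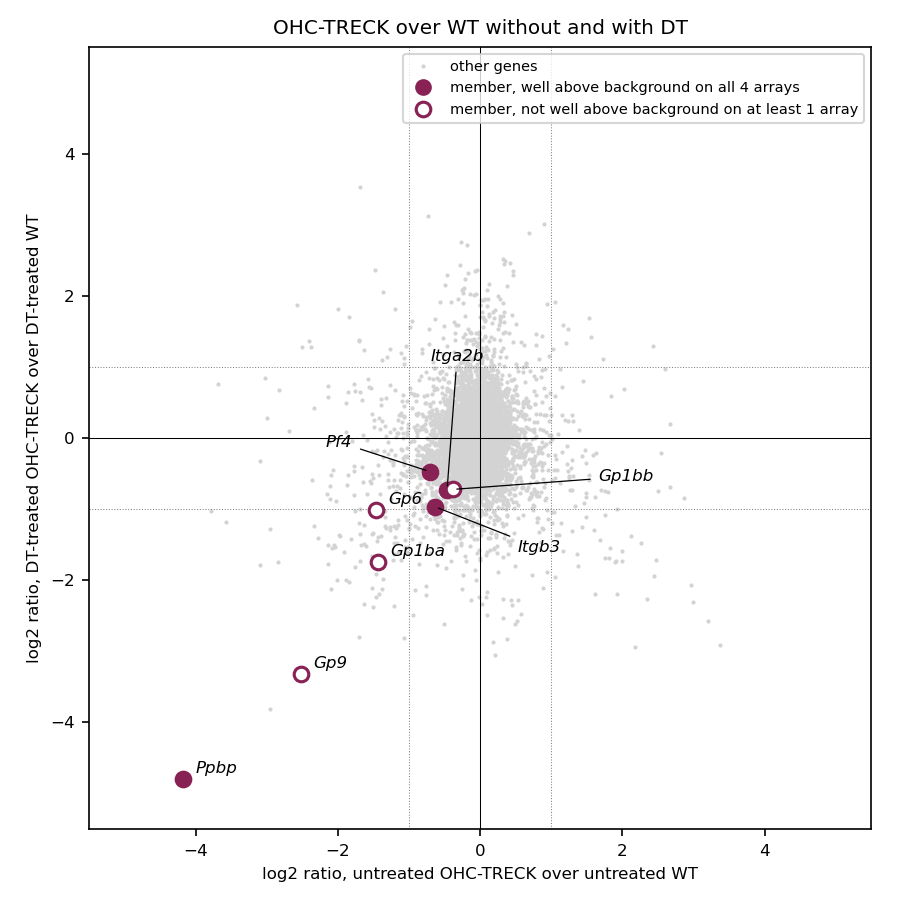
Log2 ratio of OHC-TRECK over WT without DT (x axis) and with DT (y axis) for all genes that have both ratios (grey) and the 8 measured members (purple). Open points were not well above background on at least 1 array, and a dim side was set at its bound; dotted lines mark 2-fold, and *Ppbp* lies at -4.18 and -4.79, lower than every other gene drawn on both axes.

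In WT mice, some members were higher with the toxin. In DT-treated over untreated WT, 3 of the 8 were 2-fold or more higher, *Ppbp* with 2.87-fold, *Gp1ba* with 2.39-fold and *Gp9* with 2.09-fold, and 0 were lower, where 1.55% of 20485 genes were higher and 1.12% lower. The median log2 ratio of the 8 was 0.44, beside -0.04 over all genes. This was not particular to the members. Of the blood cell lists described below, 6 of 18 neutrophil, 9 of 18 red cell and 5 of 14 B cell genes were 2-fold or more higher. In these lists 0 were lower, and the medians were 0.72, 1.13 and 0.67. The macrophage, endothelial and mast cell lists had medians of -0.06, -0.10 and -0.10. *Gp6* was the member without a higher value, 1.08-fold lower. *Gp1ba* and *Gp9* were no longer at 2-fold after normexp, with log2 ratios of 0.73 and 0.89. In DT-treated over untreated OHC-TRECK, 4 members had a ratio and 0 of them reached 2-fold in either direction, where 2.71% of 21431 genes were higher and 1.41% lower. *Ppbp* was 1.87-fold, *Pf4* 1.53-fold and *Itgb3* 1.13-fold higher, and *Itga2b* was 1.03-fold lower. The other 4 were not well above background on both arrays, and their bounds gave no fold. The difference between the DT effects in the 2 genotypes could not be tested with 1 array each.

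The other genes of platelets and megakaryocytes were followed in 3 lists of 44 genes, of which 42 could be measured. In untreated OHC-TRECK over untreated WT, 4 of 39 were 2-fold or more lower and 1 higher, where 2.44% and 1.02% of all genes were, and their median log2 ratio was -0.22. In the DT-treated pair 9 of 41 were lower and 1 higher, where 1.94% and 1.52% of all genes were, and the median was -0.14. Dim arrays were set at their bounds here too.

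Among 18 receptors and signalling proteins of platelets, 16 were measured and 1 of 16 was 2-fold lower in the untreated pair, *Treml1*, which encodes a receptor stored in α-granules. *Treml1* stood at -2.20 in untreated WT, -1.17 in DT-treated WT, -5.15 in untreated OHC-TRECK and -4.99 in DT-treated OHC-TRECK, so both WT arrays were well above both OHC-TRECK arrays, as with *Ppbp*. With DT, 3 of 15 were 2-fold lower: *Treml1*, *Clec1b*, the podoplanin receptor, with 2.03-fold, and *Cd226*, an adhesion receptor, with at least 2.08-fold. The kindlin gene *Fermt3*, needed to activate integrins, was 1.49-fold and 1.25-fold lower in the untreated and DT-treated pairs. *Fcer1g*, the signalling partner of glycoprotein VI that many myeloid cells also make, was 2.08-fold higher in DT-treated OHC-TRECK and is named because it was the 1 gene of the list in that direction.

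Among 14 genes of granules, eicosanoid enzymes and cytoskeleton, 1 of 12 was 2-fold lower in the untreated pair and 1 of 14 in the DT-treated pair, *Mmrn1* both times, with medians of -0.14 and -0.07. *Mmrn1* encodes multimerin 1, a granule protein that lymphatic endothelium also makes, and stood at -2.81 in untreated WT, -3.81 in DT-treated WT, -8.43 in untreated OHC-TRECK, not well above background, and -4.99 in DT-treated OHC-TRECK. It was at least 11.9-fold lower in untreated OHC-TRECK but 2.27-fold lower in the DT-treated pair, and DT-treated WT was below untreated WT, unlike *Ppbp*. The thromboxane pathway genes *Ptgs1* and *Tbxas1* were 1.21-fold and 1.22-fold lower in the untreated pair, and *F13a1*, a coagulation factor chain, 1.18-fold. The list did not go 1 way: 8 of its 12 ratios were below 0 and 4 above in the untreated pair. In the DT-treated pair 8 of 14 were below 0 and 6 above.

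Among 12 regulators of megakaryocytes, 2 of 11 were 2-fold lower and 1 higher in the untreated pair. In the DT-treated pair 5 of 12 were lower and 0 higher, beside 1.94% and 1.52% of all genes. *Gata1*, the transcription factor of the megakaryocyte and red cell lineages, stood at -4.88 in untreated WT, -2.22 in DT-treated WT and -4.59 in DT-treated OHC-TRECK, and read -6.09 in untreated OHC-TRECK, where it was not well above background. It was at least 2.31-fold lower without and 5.15-fold lower with DT. *Nfe2*, which drives late platelet formation, was 2.01-fold and 2.89-fold lower, and *Gfi1b*, which both lineages need, 1.93-fold and at least 5.64-fold. In WT, DT went with 5 of 12 regulators 2-fold or more higher and 0 lower, beside 1.55% and 1.12% of all genes, *Gata1* by 6.30-fold and *Gfi1b* by 2.51-fold. *Thpo*, which encodes thrombopoietin, the hormone of platelet formation, went in opposite directions in the 2 genotypes and is described at the end, and the regulator *Mecom*, at least 4.97-fold lower in the DT-treated pair, is named after its value was seen, as the fifth of the 5.

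The genes nearest to *Ppbp* were sought over the 4 arrays among 18231 other genes well above background on all of them. Likeness was the root mean square difference between the log2 signals after each gene's 4-array mean was taken off, so the size of the difference counts as well as its order. The arrays include the pair that chose *Ppbp*, and the likeness of the genes named is fixed by how they were picked. *Treml1* was nearest, at 0.64. The next 9 were *Prg2*, *Ear12*, *Ear1*, *Camp*, *Ngp*, *Cebpe*, *Chil3*, *Rnase2a* and *Ear2*, at 1.15 to 1.34. *Prg2* encodes the eosinophil major basic protein, and the *Ear* genes and *Rnase2a* encode eosinophil-associated ribonucleases, a family of near-identical copies whose oligos may share signal. *Camp* and *Ngp* encode neutrophil granule proteins, *Cebpe* the transcription factor of granulocyte maturation, and *Chil3* a chitinase-like protein of myeloid cells. *Itgb3*, *Pf4* and *Itga2b* came at places 87, 157 and 192.

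**Figure D3:**
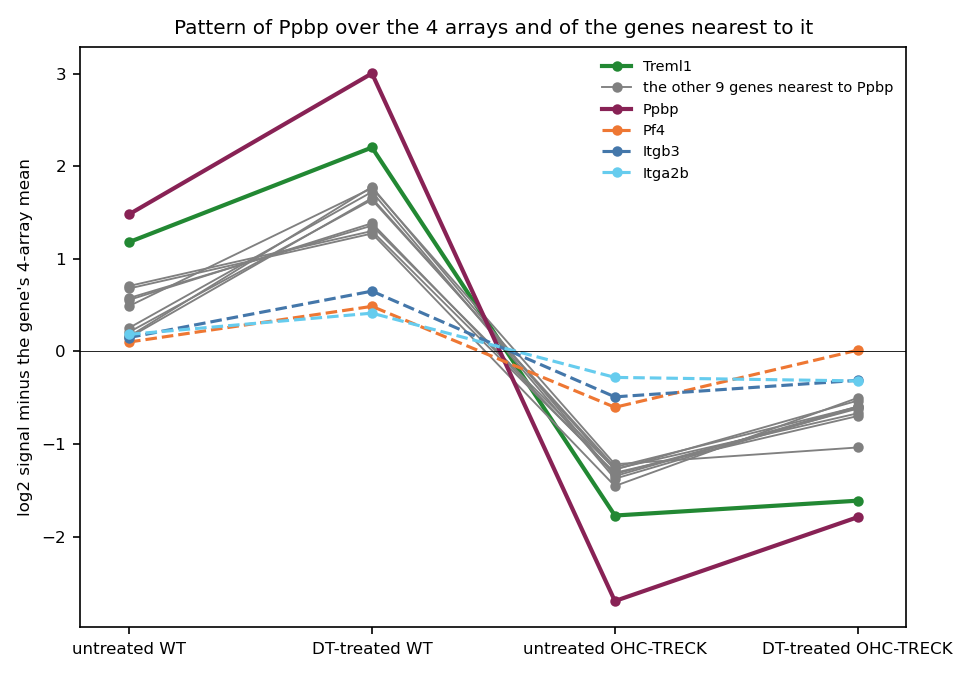
Log2 signal minus the gene's mean over the 4 arrays (y axis) for *Ppbp*, *Treml1*, the next 9 genes in likeness (grey) and *Pf4*, *Itgb3* and *Itga2b* (dashed). Each line joins the 4 single arrays of the x axis; the grey genes were picked for their likeness to *Ppbp* on these arrays, so their shared order is fixed by the choice, and they span a smaller range.

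Genes of other blood cells moved with the members, and their part in the result was not tested. The list of 18 genes of neutrophils and their precursors was 2-fold or more lower in 14 of 17 in the untreated pair and 15 of 18 in the DT-treated pair, with 0 higher, where 2.44% and 1.94% of all genes were lower, and its median log2 ratios were -1.36 in both. Every gene of that list with a ratio had it below 0 in both pairs. Of all genes, 11313 of 21110 did in the untreated pair and 9342 of 19495 in the DT-treated pair. Its summed normalized signal was 39.8 in untreated WT, 62.7 in DT-treated WT, 14.3 in untreated OHC-TRECK and 24.6 in DT-treated OHC-TRECK, the array order of *Ppbp*. The 18 red cell genes did not follow this in the untreated pair, where 0 of 15 reached 2-fold and the median was 0.09, but with DT 8 of 18 were lower, against the 1.94% of all genes, with a median of -0.63, and in WT 9 of 18 were higher with DT, against 1.55%. Their summed signal was 83.0, 110.0, 99.7 and 108.1 in untreated WT, DT-treated WT, untreated OHC-TRECK and DT-treated OHC-TRECK, and all 18 could be measured. The 14 B cell genes had 0 of 13 and 7 of 14 lower in the same 2 comparisons, with 1 and 0 higher, against 2.44% and 1.94% of all genes lower, with medians of -0.29 and -0.80 and summed signals of 4.84 to 6.74.

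Vessel and macrophage genes had other patterns. All 10 endothelial genes were well above background on all 4 arrays, and 0 of 10 reached 2-fold in either pair. Of all genes, 2.44% were lower and 1.02% higher in the untreated pair, and 1.94% and 1.52% in the DT-treated pair. The endothelial medians were -0.07 and 0.06, with summed signals of 13.8 to 15.1. *Vwf* and *Selp* of this list are also in the platelet granule list. The 10 macrophage genes had a median of -0.21 in the untreated pair and 0.88 in the DT-treated pair. In the DT-treated pair 3 of the 10 were 2-fold higher, against 1.52% of all genes. Their summed signals were 16.4, 15.4, 14.2 and 25.4. Of 7 mast cell genes, 5 were measured, with summed signals of 1.44 to 1.89 and medians of -0.20 and -0.29. The 7 outer hair cell genes could check the label of the DT-treated OHC-TRECK array only. In the untreated pair and in DT-treated over untreated WT 0 of 7 reached 2-fold, so they could not tell those arrays apart. In DT-treated OHC-TRECK 4 of 7 were 2-fold or more lower than in DT-treated WT, against 1.94% of all genes, with a median of -2.24.

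**Figure D4:**
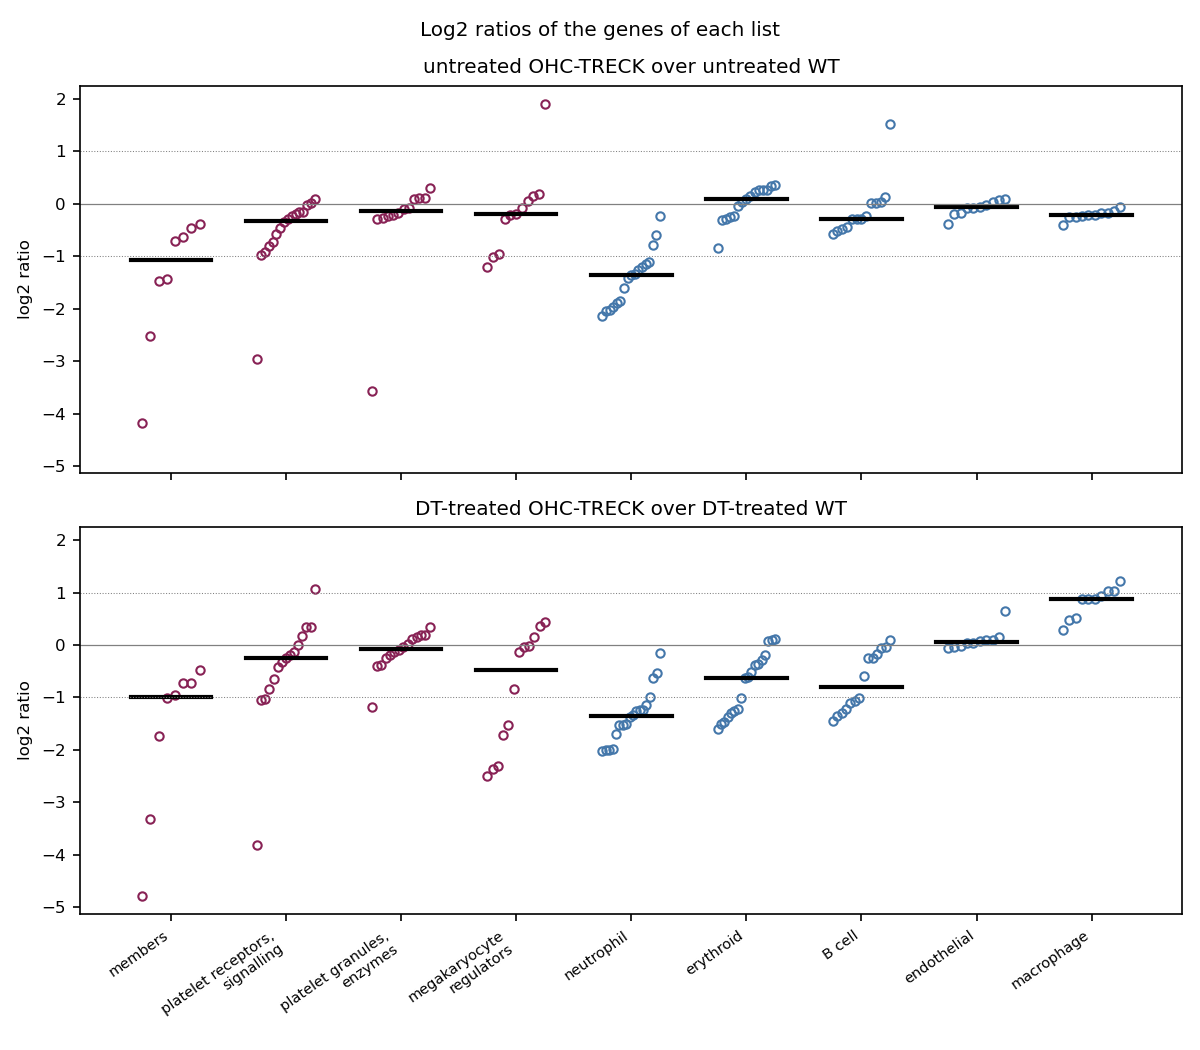
Log2 ratio of OHC-TRECK over WT (y axis) for the genes of 9 lists, untreated (upper) and DT-treated (lower), 1 circle per gene in order of its ratio, with black bars for list medians and dotted lines at 2-fold. Platelet and megakaryocyte lists are purple and other cell types blue; the neutrophil genes lie below 0 in both panels, with a median of -1.36 in each.

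The arrays were alike in depth of signal. Between 62.2% and 70.6% of features per array were well above background, the 75th percentile of intensity was 2728 to 3162, and 0 spots were saturated. The 2 untreated arrays had the larger shares above background and the lower bounds, so a dim member was more easily measured there than on the 2 DT arrays.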

How the data were processed

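The authors hybridized pooled, Cy3-labelled cochlear RNA to 1-colour Agilent arrays on 1 slide, 1 array for each of the 4 groups, and deposited the output of Agilent Feature Extraction 11.5.1.1. The intensity deposited for each spot is linear, background-subtracted and not scaled between arrays, and in a deposited table of scaled values each array's intensity has been divided by its own constant. Feature positions are on mm9.

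Outlier and control spots were left out. Spots of a feature were averaged, divided by the array's 75th percentile and log2-transformed, following the study's methods, which name that percentile. A feature was compared where the software marked it well above background on either array, a dim side was raised to the array's lowest well-above-background signal, and 2-fold was the threshold. For a gene, the feature with the highest mean was used. With 1 array per group there is no test, p-value or interval between mice, and precision is limited by the number of arrays; the software's spot error and repeated spots cover the spot only. The members and lists were chosen with earlier results of these data known. Named were the members, at most 6 genes of each platelet list by the size of their ratio in untreated OHC-TRECK over untreated WT, the 10 genes nearest to *Ppbp*, and its chemokine neighbours; genes of other cell types stand as lists. Others are marked in the text. 1 further gene that this rule takes is counted in its list but not reported here. The 10 alternatives tried were normexp (offset 50), median scaling, quantile normalization, no filter, a filter on all 4 arrays, no floor, the deposited scaled table, outlier spots kept, a 1.5-fold threshold and the mean of a gene's features. The procedure was tested on simulated data with changes placed in bright features only, so calls on dim spots and bounds were not covered. Python 3.11.15, pandas 2.3.3, numpy 2.4.6, R 4.3.3 and limma 3.58.1 were used.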

Additional observations from a re-analysis of the deposited data

Results flagged for a closer look

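*Thpo* is the 1 platelet or megakaryocyte gene whose DT effect had opposite signs in the 2 genotypes at 2-fold or more. It stood at -3.72 in DT-treated WT and -4.01 in untreated OHC-TRECK, and read -6.50 in untreated WT and -7.65 in DT-treated OHC-TRECK, not well above background on either. With the dim array at its bound, the log2 ratio of DT-treated over untreated was 2.21 in WT and -1.43 in OHC-TRECK, and that of OHC-TRECK over WT was 1.91 without DT and -1.73 with DT. Each genotype has 1 array per treatment, and the difference was not tested. *Mmrn1* just missed the same threshold: DT went with a 1.997-fold lower signal in WT, a log2 ratio of -0.998, and with a signal at least 2.64-fold higher in OHC-TRECK, which was not tested either.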

How the results depend on the processing

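No single-gene ratio of a member reversed its sign under the 9 alternatives that give one (0 of 240 values). Of 91 values of the 11 ratios at 2-fold or more, 91 kept their direction and 83 stayed at 2-fold or more. After normexp, 2 members reached 2-fold in untreated OHC-TRECK over untreated WT, 1 in DT-treated over untreated WT and 2 in DT-treated OHC-TRECK over DT-treated WT. With features well above background on all 4 arrays, of which 4 members have one, 1 member did so in each of these comparisons. Without the floor, 1 member, *Gp6*, reached 2-fold in DT-treated over untreated OHC-TRECK. At 1.5-fold, 7 members were counted in DT-treated OHC-TRECK over DT-treated WT and 2 in DT-treated over untreated OHC-TRECK. Among the 7, *Gp1ba*, *Gp1bb*, *Gp9* and *Gp6* are given by bounds. The share of all genes past 1.5-fold was not taken, so nothing is read from these counts. The log2 ratio of *Ppbp* ranged from -4.20 to -3.24 in the untreated pair and from -4.79 to -4.09 in the DT-treated pair. Fewer features entered under the filter on all 4 arrays, and normexp shrinks dim spots by its offset. Leaving out an array was not possible, since each group has 1, and features near background limit the calls of *Gp1ba*, *Gp6* and *Gp5*. No paired analysis was possible because each group has 1 array.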
